A study of Mus musculus with 17 samples.

Results

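The 9 genes described here, of 24453 gene models measured, encode proteins that shorten the life of inflammatory mRNAs, and they were taken by name as 3 small families. The first holds Zfp36, which encodes tristetraprolin (TTP), and its relatives Zfp36l1 and Zfp36l2. The second holds the Regnase genes Zc3h12a (Regnase-1) and Zc3h12c (Regnase-3). The third holds the antiproliferative genes Btg1, Btg2, Tob1 and Tob2. All 9 were measured above 0 in every library, and all 9 passed the filter at a mean of 1 RPKM (reads over the exons of a model, scaled to its length and to the library's mapped reads) in both kinds of macrophage.

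TTP and its relatives bind AU-rich elements, short stretches in the 3′ untranslated region (UTR) of cytokine mRNAs, and recruit the CCR4-NOT complex, which removes the poly(A) tail. Regnase-1 is an endonuclease that cuts stem-loops in the 3′ UTRs of mRNAs such as Il6. BTG and TOB proteins bridge poly(A)-binding protein and the deadenylases of CCR4-NOT. In macrophages these proteins are known to restrain and end cytokine production after Toll-like receptor signals, and several of their genes are themselves immediate early genes.

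PolyA RNA-seq was compared in 13 mouse libraries. Immortalised bone marrow-derived macrophages (iBMDMs), vehicle-treated C57Bl/6EiJ cells immortalised with BRAF(V600E) and Myc, were labelled Atf3KO, JunKO, JunDKO or scramble control (Scramble), with 2 libraries a group. The titles of the 2 control libraries read zsGreen and hold neither scramble nor vehicle, while those of the knockouts hold vehicle. All 4 groups came from a line carrying Cas9, and the knockouts were pools of cells sorted after lentiviral delivery of guides, not described as clones. Thioglycollate-elicited macrophages (TGEMs), primary peritoneal cells cultured from mice labelled male, were treated for 1 h with KLA (Kdo2 lipid A), which activates the endotoxin receptor TLR4, or with vehicle. There was 1 library each of vehicle and KLA in C57Bl/6EiJ, and in Balb/cJ 1 of vehicle and 2 of KLA. Ages are not in the labels, and the study's methods give 1 age, of young adult mice, for both strains. The labels also do not say whether libraries of a group came from separate cultures or mice, so p-values measure the spread between these libraries, which may be technical.

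Depth was 1553296 to 18444430 mapped reads a library, and the 9 genes rested on 14 reads (Zc3h12a, JunKO replicate 1) to 17773 reads (Zfp36, Balb/cJ KLA replicate 1). Of the 117 values, 23 rested on fewer than 50 reads. All 8 macrophage markers checked measured at least 1 RPKM in every library. Markers of 7 other cell types summed to at most 1.29 RPKM a list in iBMDMs, and in TGEMs the 6 mesothelial or fibroblast markers summed to 54.6 and 77.3 RPKM with vehicle and 36.9 to 66.0 with KLA. In bulk RNA, fewer cells of a type and less RNA per cell cannot be told apart. The study checked its knockouts at the protein level by western blotting, which is not analysed here. The mRNA of the targeted genes does not check the labels, since Atf3 was higher, at 154 and 169 RPKM, in Atf3KO than in Scramble (80.7 and 77.4), and the other targets were at similar levels (Jun 26.2 and 20.5 in JunKO against 17.6 and 18.5, and Jund 6.94 and 6.07 in JunDKO against 9.19 and 8.33). Xist was at most 0.029 RPKM in iBMDMs and 19.2 to 28.1 RPKM in TGEMs, which the labels give as male.

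Sequences are shown for the genes on which the results turn, from the RefSeq annotation of GRCm38 (mm10), where Zfp36 lies at chr7:28376784-28379228 on the minus strand. The other genes lie, by the coordinates of the files, at chr12:80107760-80113013 (Zfp36l1), chr17:84183928-84187947 (Zfp36l2), chr4:125118414-125127881 (Zc3h12a), chr9:52111985-52168111 (Zc3h12c), chr1:134074865-134079155 (Btg2) and chr15:81848270-81858326 (Tob2), on the minus strand, and at chr10:96617001-96622811 (Btg1) and chr11:94211454-94215492 (Tob1), on the plus strand. All 9 genes were matched to RefSeq by transcript identifier, and 5 of them had the same start and end there. The model of Zc3h12c in the files is 6126 bases long and its RefSeq transcript, used for its 3′ UTR, 8844 bases. The TTP family binds the heptamer TATTTAT, with U for T in the RNA, so windows of 27 bases in the annotated 3′ UTRs of the family's own transcripts are given with each heptamer in capitals. They lie at chr7:28376961-28376987 (Zfp36), chr12:80108417-80108443 (Zfp36l1) and chr17:84184909-84184935 (Zfp36l2), all on the minus strand.
Zfp36 3′ UTR: ccttTATTTATgacgacttTATTTATt
Zfp36l1 3′ UTR: aacgTATTTATtgccaaactatgcttt
Zfp36l2 3′ UTR: aactTATTTATtatcttgtgaaaagta

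The 3′ UTRs of Zfp36, Zfp36l1, Zfp36l2 and Zc3h12c each held 3 copies of TATTTAT, those of Btg2 and Tob2 held 1, and those of Zc3h12a, Btg1 and Tob1 held 0. Of mouse 3′ UTRs within 20% of the same length, 1.1% held as many copies as the 774-base UTR of Zfp36, and 4.1% as many as that of Zfp36l1. For Zc3h12c, whose 3′ UTR is longer (5837 bases), that share was 19.5%. A match is a description of the sequence and not of binding.

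Promoter windows, 250 bases before to 50 after the annotated start, are shown for Zfp36 and Btg2, which rose after KLA, and for Zfp36l1, which was higher in both Atf3KO and JunDKO, with matches to motifs of signal-responsive factors in capitals. The windows are chr7:28379179-28379478 (Zfp36), chr12:80112964-80113263 (Zfp36l1) and chr1:134079106-134079405 (Btg2), all on the minus strand and all from RefSeq on GRCm38.p6.
Zfp36 promoter: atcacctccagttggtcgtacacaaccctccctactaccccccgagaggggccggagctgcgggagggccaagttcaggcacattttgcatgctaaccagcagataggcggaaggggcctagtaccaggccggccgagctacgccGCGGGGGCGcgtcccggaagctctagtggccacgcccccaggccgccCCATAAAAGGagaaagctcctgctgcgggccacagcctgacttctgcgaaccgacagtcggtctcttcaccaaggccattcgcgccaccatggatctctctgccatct
Zfp36l1 promoter: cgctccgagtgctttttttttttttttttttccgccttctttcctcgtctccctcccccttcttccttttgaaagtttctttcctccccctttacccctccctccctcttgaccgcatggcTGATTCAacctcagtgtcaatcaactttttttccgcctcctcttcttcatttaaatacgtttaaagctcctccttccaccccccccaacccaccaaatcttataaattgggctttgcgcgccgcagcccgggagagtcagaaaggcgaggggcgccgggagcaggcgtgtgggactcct
Btg2 promoter: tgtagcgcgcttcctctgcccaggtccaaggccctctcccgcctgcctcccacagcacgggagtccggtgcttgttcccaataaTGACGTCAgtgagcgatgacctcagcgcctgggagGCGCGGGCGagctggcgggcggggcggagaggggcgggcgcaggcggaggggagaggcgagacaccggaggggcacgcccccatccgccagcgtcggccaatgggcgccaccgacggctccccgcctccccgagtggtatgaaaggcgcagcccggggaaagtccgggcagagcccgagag

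The motifs searched on both strands were the AP-1 motif TGANTCA, the CRE motif TGACGTCA, the early growth response motif GCGNGGGCG, the CArG box of serum response factor and the kB motif of NF-kB. In the Zfp36 window a CArG box began at base -58 and a GCGNGGGCG match at base -105, counted from the start. In the Btg2 window TGACGTCA began at base -166 and GCGNGGGCG at base -131, and in the Zfp36l1 window TGANTCA began at base -129. None of these matches overlapped another. Of 32851 mouse promoter windows of the same length, 1.63% held a CArG box, 5.55% GCGNGGGCG, 1.79% TGACGTCA, 7.81% TGANTCA and 4.51% the kB motif. The other 5 of the 8 genes with an entry (Zc3h12a, which was also called after KLA, Zc3h12c, Btg1, Tob1 and Tob2) had no match to any of these 5 motifs, and the kB motif was found in none of the 8, which says only that these letters are not in these windows. TATAAA and CCAAT, also searched and not in capitals, were in 13.6% and 37.4% of all windows, and they overlapped by 1 base in the Zfp36l1 window.

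In Scramble iBMDMs the 9 mRNAs were moderately expressed and spanned 6.66 to 31.5 RPKM on the length-normalised scale. Zfp36l2, the relative of TTP best known from blood cell development, was highest at 31.5 ± 4.0 RPKM (SD, n = 2). Zfp36 (13.3 ± 1.5), Tob1 (12.9 ± 2.5), Btg1 (12.0 ± 1.4) and Btg2 (10.3 ± 1.7) followed, and the libraries of neighbours in this order overlapped. Tob2 (7.19 ± 0.80), Zc3h12a (7.09 ± 0.60), Zc3h12c (6.79 ± 0.51) and Zfp36l1 (6.66 ± 2.78) were lowest and did not differ beyond their spread. In KLA-treated TGEMs the range widened to 6.18 to 831 RPKM, with Zfp36 at 831 ± 244 (SD, n = 3) first and Tob1 at 6.18 ± 1.58 last.

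**Figure D1:**
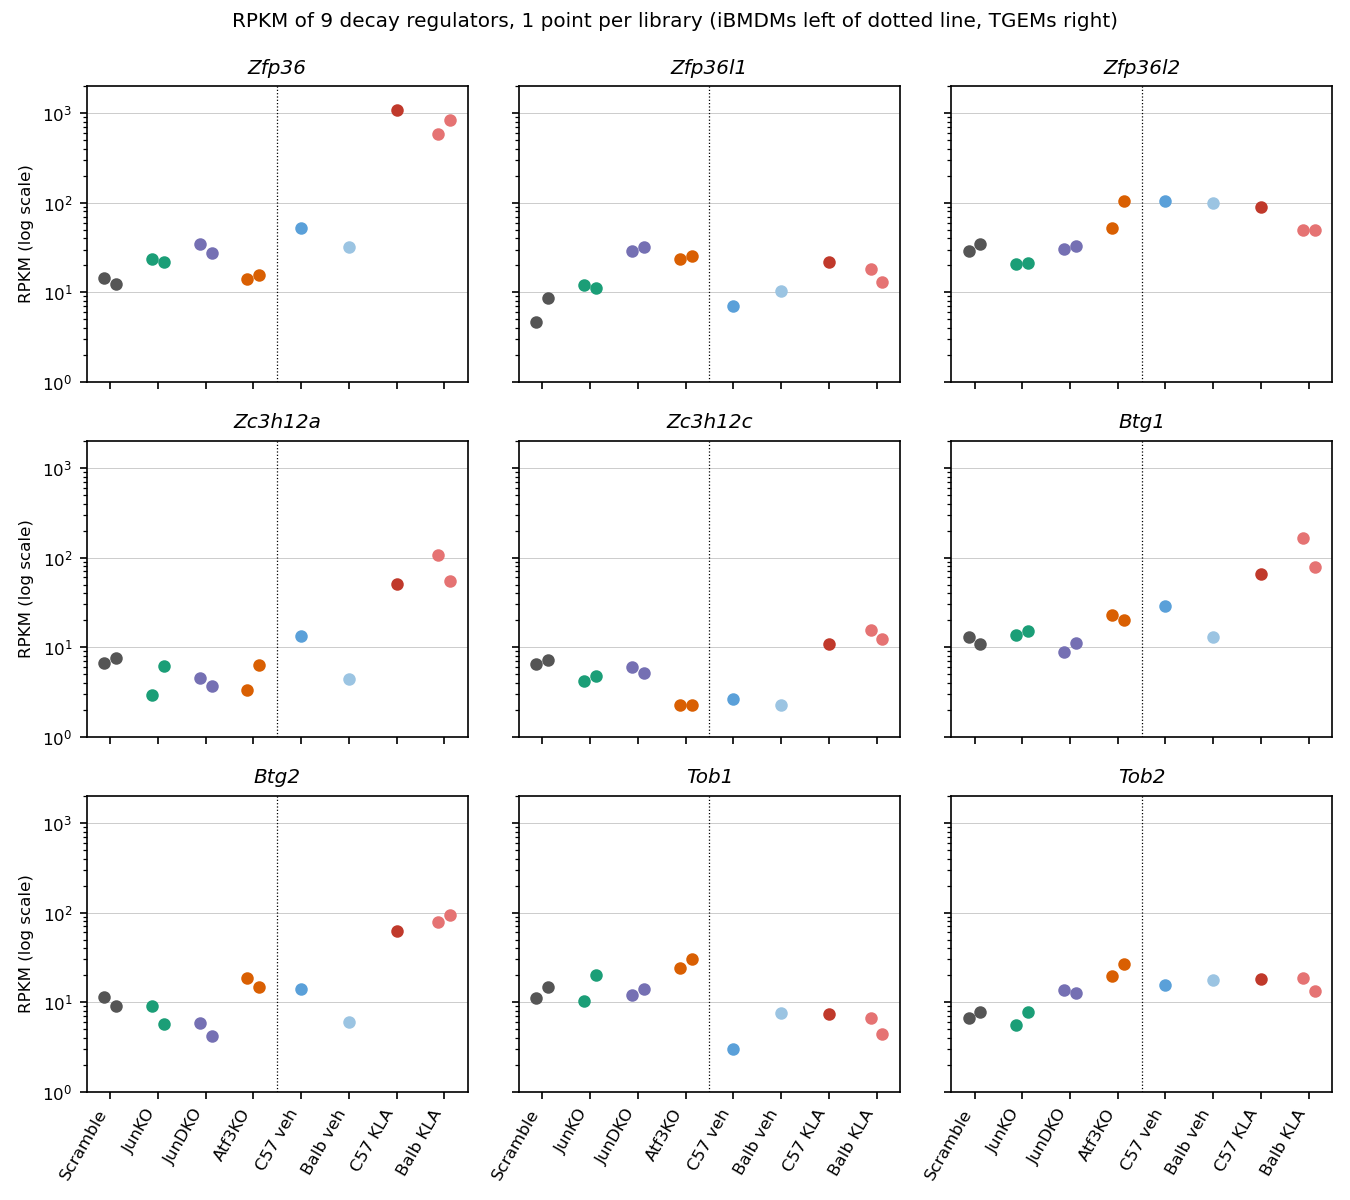
RPKM (log axis) of each of the 9 genes, 1 point per library, with iBMDM groups left and TGEM groups right of the dotted line. Zfp36 sits between 585 and 1074 RPKM in the 3 KLA libraries and at or below 52.8 RPKM in the other 10, while Tob2 stays between 5.59 and 26.7 RPKM throughout.

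The comparison of KLA with vehicle asked how TGEMs respond to 1 h of TLR4 stimulation. Zfp36, Zc3h12a and Btg2 rose, 1 from each family. Zfp36l1, Zc3h12c and Btg1 were also higher in every KLA library than in both vehicle libraries but did not pass the call, which asked for an adjusted p under 0.05, a change of at least 2-fold and, in 1 of the groups, an average of no less than 16 RPKM. Zfp36l2, Tob1 and Tob2 did not pass it either. The 3 genes called of 9 compare with 1.13% of the 10357 gene models tested, and the 6 genes higher in every KLA library with 5.74%. Zc3h12a and Btg2 averaged under 16 RPKM with vehicle and so could be called only higher. Without the RPKM minimum 4 of 9 genes were called, against 1.53% of models.

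Zfp36 measured 52.8 RPKM in the C57Bl/6EiJ vehicle library and 32.0 in that of Balb/cJ. With KLA it measured 1074 RPKM in C57Bl/6EiJ and 585 and 833 in Balb/cJ, so that the groups lay far apart. Its log2 difference on the log2(RPKM + 1) scale was 4.37 ± 0.28 (SE; limma-trend, Benjamini-Hochberg adjusted p = 0.00058). Within pairs of libraries of 1 strain, KLA raised Zfp36 20.3-fold in C57Bl/6EiJ and 18.3-fold and 26.0-fold in Balb/cJ. Zfp36 then stood above 99.8% of all gene models, while with vehicle it stood above 94.9%.

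Zc3h12a, the gene of the endonuclease Regnase-1, measured 13.5 RPKM with vehicle in C57Bl/6EiJ and 4.43 RPKM, resting on 29 reads, in Balb/cJ. Counting error alone gave the latter an exact Poisson 95% interval of 2.96 to 6.36 RPKM. With KLA it measured 50.5 RPKM in C57Bl/6EiJ and 106 and 54.9 RPKM in Balb/cJ, above both vehicle libraries. The log2 difference was 2.98 ± 0.50 (limma-trend adjusted p = 0.0348). The call was lost with a pseudocount of 5 (2.46, adjusted p = 0.0518), quantile normalization (3.07, 0.0549), no filter on low values (0.202) or label date in place of strain (3.07, 0.18). Its relative Zc3h12c measured 2.66 and 2.30 RPKM with vehicle and 11.0, 15.4 and 12.3 RPKM with KLA. The difference of Zc3h12c was 1.97 ± 0.25 with a limma-trend adjusted p of 0.0104, and its KLA mean of 12.9 RPKM was under the minimum of a call. With 1 library left out, no filter or label date, that p reached 0.0528 to 0.331 in 6 fits.

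Btg2, an immediate early gene and target of p53, measured 14.1 RPKM (C57Bl/6EiJ) and 5.96 RPKM (Balb/cJ) with vehicle. It measured 61.6 RPKM in the C57Bl/6EiJ KLA library and 78.2 and 93.4 RPKM in the Balb/cJ KLA libraries, a log2 difference of 2.96 ± 0.38 (limma-trend adjusted p = 0.0109), a call lost with no filter (adjusted p = 0.103) or label date (2.78, 0.0811). Btg1, its closest relative, was more variable, at 29.0 and 13.1 RPKM with vehicle and 66.3, 166 and 78.6 RPKM with KLA. Its groups did not overlap, but the difference of 2.23 ± 0.49 missed the threshold (limma-trend adjusted p = 0.105). It passed with limma-voom on recovered reads (2.39, adjusted p = 0.00834), with a filter at a mean of 5 RPKM (0.0261) and in the fit of all 13 libraries (2.10, 0.00587), and it was 1.17 without the Balb/cJ vehicle library (limma-trend adjusted p = 0.761).

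The other 4 genes moved less. Zfp36l1 measured 7.03 and 10.5 RPKM with vehicle and 21.9, 18.0 and 13.2 RPKM with KLA, a difference of 0.94 ± 0.31 (limma-trend adjusted p = 0.243). Without the Balb/cJ vehicle library this difference was 1.51. Zfp36l2 measured 106 and 99.9 RPKM with vehicle and 90.3, 49.1 and 49.4 RPKM with KLA. Its KLA libraries all lay under both vehicle libraries, as was the case for 18.0% of models and for no other of the 9 genes, with a difference of -0.67 ± 0.29 (limma-trend adjusted p = 0.335). Tob1 (3.04 and 7.49 RPKM with vehicle, 7.41, 6.74 and 4.40 with KLA) and Tob2 (15.4 and 17.9, then 18.1, 18.6 and 13.4) overlapped between the groups. Their 95% intervals of -0.64 to 1.10 and -0.63 to 0.63 on the log2 scale leave room for changes of up to about that size.

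**Figure D2:**
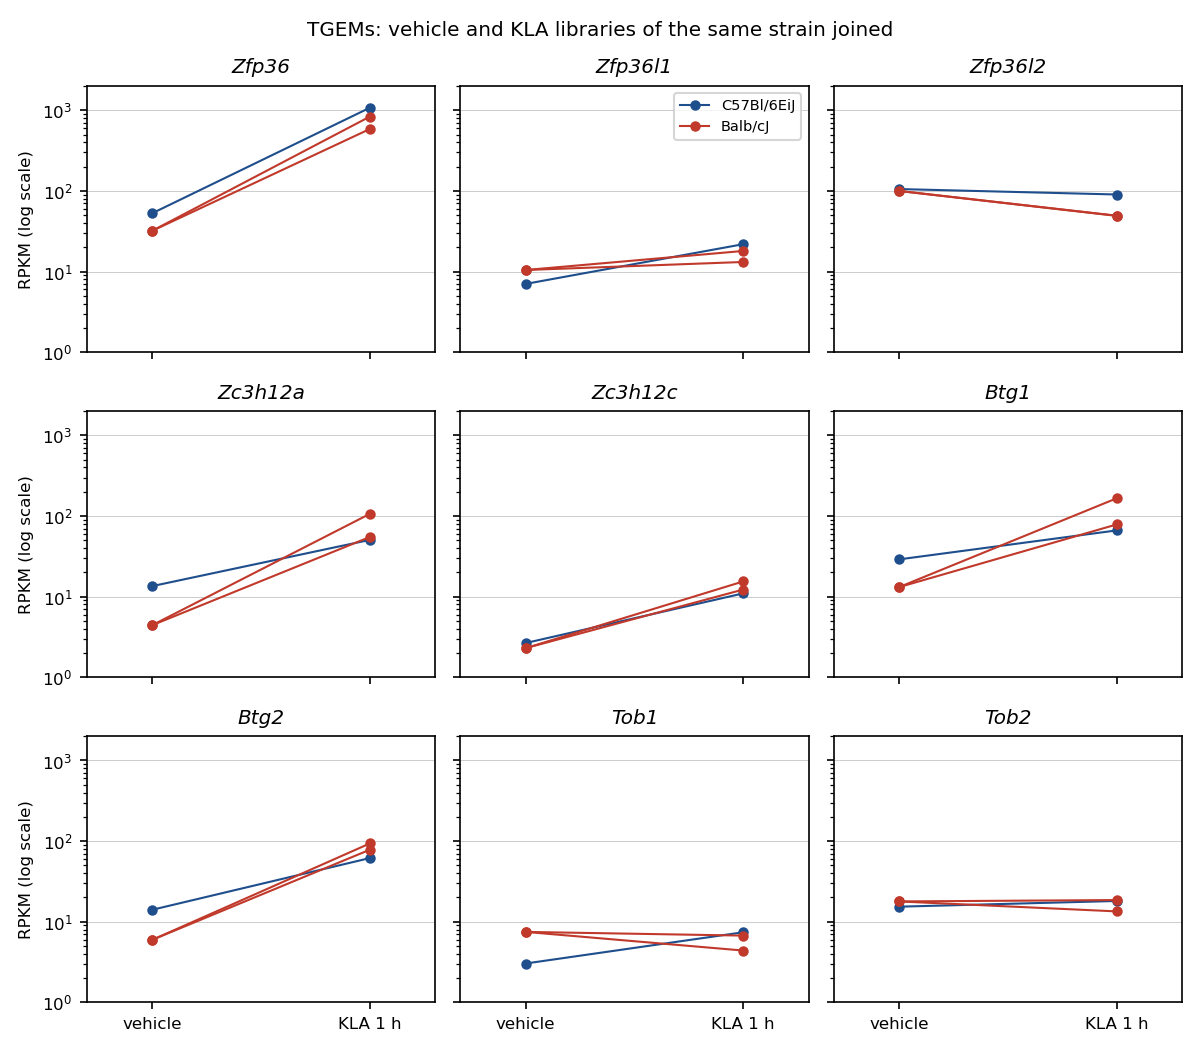
RPKM (log axis) of the 9 genes in TGEMs, with the vehicle library and each KLA library of the same strain joined by a line, C57Bl/6EiJ in blue and Balb/cJ in red. Zfp36, Zfp36l1, Zc3h12a, Zc3h12c, Btg1 and Btg2 are higher with KLA in all 3 pairs, Zfp36l2 is lower in all 3, and Tob1 stands at 3.04 and 7.41 RPKM in C57Bl/6EiJ but is not higher with KLA in Balb/cJ.

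These calls rested on few libraries. Without the Balb/cJ vehicle library 0 of the 9 genes were called against 0.146% of all models, and the differences were 4.32 for Zfp36, 2.05 for Btg2 and 1.83 for Zc3h12a (limma-trend adjusted p = 0.0646, 0.263 and 0.521). Without Balb/cJ KLA replicate 1 only Zfp36 was called, against 0.654% of all models. The mesothelial or fibroblast markers, of which 4 or 5 of 6 reached 1 RPKM in each TGEM library, were lower in sum with KLA in all 3 pairs of 1 strain (54.6 and 47.4 RPKM in C57Bl/6EiJ, 77.3 against 66.0 and 36.9 RPKM in Balb/cJ). Those of B cells (5.38 and 8.18 RPKM in sum with vehicle, 7.51 to 16.0 with KLA) and mast cells (2.13 and 6.03, then 2.01 to 13.2) overlapped between the groups, and the part of these markers in the results was not tested.

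Transcripts known as targets of TTP or Regnase-1 were measured in the same libraries. Of the 12 that averaged at least 1 RPKM with vehicle, 11 rose after KLA and 0 fell, where 1.13% of all models were called. Several of the 12, such as Il1b, Cxcl1, Cxcl2 and Nfkbiz, averaged under 16 RPKM with vehicle. By the RPKM minimum of a call, these could be called only higher, so that 0 fell says nothing of them. The other 5 tested (Csf2, Il6, Il12b, Il23a and Ptgs2) averaged under 1 RPKM with vehicle and passed the filter through the KLA libraries, so that they could be found only higher, and their calls are not counted here. Tnf, the classical TTP target, measured 20.6 and 18.1 RPKM with vehicle and 2765, 4480 and 3718 RPKM with KLA, a log2 difference of 7.42. Il1b (7.70), Cxcl1 (7.67) and Cxcl2 (7.55), which encode an interleukin and neutrophil chemoattractants, had larger differences than Tnf, and Nfkbiz (6.37), an IkB family gene whose mRNA Regnase-1 cleaves, came after it. Each of these 5 had a larger fitted difference than Zfp36. Il6, Csf2 and Il12b were at most 8.36 RPKM in any KLA library and did not pass the call.

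Genes of the decay machinery, other AU-rich element binding proteins, and relatives and partners of the 9 proteins were read against the same background of 1.13% of models called. None of the 14 CCR4-NOT and other deadenylase genes, 14 decapping and 5′ to 3′ decay genes, 14 exosome genes, 6 other AU-rich element binding proteins, 7 relatives and partners of Regnase and Roquin and 3 poly(A)-binding and BTG relatives were called by limma-trend, and 10 of these 58 had an unadjusted p under 0.05, as had 15.0% of all models. Their median log2 differences lay between -0.35 and 0.31, against -0.15 for all models tested. Of 6 kinases and phosphatases that act on TTP, 1 was called, which was Dusp1, a phosphatase that inactivates p38. Dusp1 rose from 55.3 and 16.1 RPKM to 1183, 759 and 888 RPKM, a log2 difference of 5.08 ± 0.34 (limma-trend adjusted p = 0.000622).

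**Figure D3:**
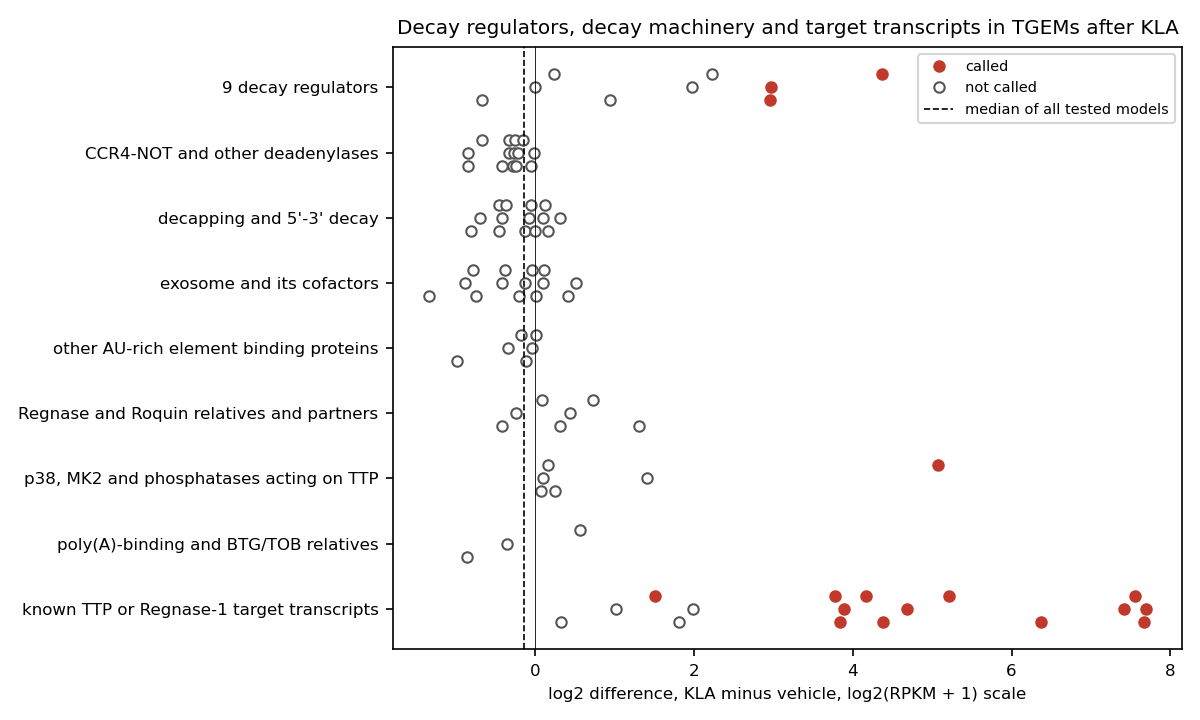
Log2 difference between KLA and vehicle TGEMs on the log2(RPKM + 1) scale for the 9 genes and 8 lists of related genes, 1 point per gene, filled where called, with the median of all models tested (-0.15) as a dashed line. The points of the deadenylase, decapping and exosome lists gather around the dashed line, while the known targets reach from 0.33 (Tfrc) to 7.70 (Il1b).

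Whether KLA acted differently in the 2 strains was tested by the interaction of treatment and strain, which left 1 residual degree of freedom. None of the 9 genes was called by limma-trend or by limma-voom, as was the case for all models (0%), and 3 had an unadjusted p under 0.05 (8.06% of models). The differences in response, Balb/cJ minus C57Bl/6EiJ, were 2.01 ± 0.76 for Zc3h12a, 1.58 ± 0.53 for Btg2 and -1.45 ± 0.55 for Tob1 (limma-trend adjusted p = 0.613, 0.592 and 0.616). For Btg1 the value was 1.86 ± 0.82 (limma-trend adjusted p = 0.65). Zc3h12a thus measured 3.74-fold higher with KLA in C57Bl/6EiJ and 24.0-fold and 12.4-fold higher in Balb/cJ, a contrast that the test did not separate from the spread. Between the strains, at equal treatment, 0 of the 9 genes were called by limma-trend or limma-voom (1.16% of models by limma-trend) and 1 had an unadjusted p under 0.05 (21.4% of models), Zfp36, at -0.66 ± 0.28 in Balb/cJ relative to C57Bl/6EiJ (limma-trend adjusted p = 0.233). The labels carry 3 dates for the TGEM libraries, of which 1 is that of both C57Bl/6EiJ libraries, so strain and label date cannot be told apart.

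The patterns most like those of the 3 genes with the widest range were found over the 13 libraries by Pearson's r of log2(RPKM + 1) among 6203 models. Zfp36 was most like Dusp2 (r = 0.989), Csrnp1 (0.979) and Rasgef1b (0.978). Itga5 (0.967) and Sowahc (0.967) were among the 3 genes most like Zc3h12a, and Btg2 was most like Junb (0.956), Errfi1 (0.954) and Rab20 (0.948). The 3 KLA libraries, which share treatment and cell type, stand apart in these correlations. Over the 8 iBMDM libraries alone r was between 0.29 (Zc3h12a with Itga5) and 0.81 (Zfp36 with Rasgef1b).

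In iBMDMs the question was whether loss of the AP-1 family members Atf3, Jun or Jund changes gene expression in unstimulated cells. In the libraries labelled Atf3KO, Zfp36l1, Zfp36l2, Tob1 and Tob2 were higher than in Scramble, 4 of 9 genes called where 12.5% of 10691 models were called in either direction and 7.84% higher. In JunDKO Zfp36 and Zfp36l1 were higher, 2 of 9 genes where 4.97% of models were called. Of the 9 genes only Zfp36l2 averaged at least 16 RPKM in Scramble, so the RPKM minimum let the others be called only higher. Without this minimum 5 of 9 genes were called in Atf3KO (28.7% of models) and 2 in JunDKO (8.77%). In JunKO 0 of 9 genes were called by limma-trend or limma-voom, where 0.196% of models were called by limma-trend, and 3 genes had an unadjusted p under 0.05 (7.88% of models). The groups did not overlap for 8 of the 9 genes in Atf3KO (6 higher, 2 lower), and 37.4% of models were higher and 33.4% lower in both Atf3KO libraries.

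Zfp36l1, a relative of TTP that binds the same elements, gave the largest fitted differences of the 9 genes in both Atf3KO and JunDKO. In Atf3KO its lead over Tob2 (1.54) was within 1 SE. It measured 4.70 and 8.63 RPKM in Scramble, resting on 27 and 44 reads, against 23.8 and 25.6 in Atf3KO, 28.7 and 31.8 in JunDKO and 12.0 and 11.2 in JunKO. Every knockout library was above both Scramble libraries. The log2 difference was 1.79 ± 0.26 in Atf3KO (limma-trend adjusted p = 0.0019), 2.08 ± 0.26 in JunDKO (0.00181) and 0.76 ± 0.26 in JunKO (0.455). The 3 comparisons share the Scramble libraries. Compared directly, JunDKO exceeded JunKO by 1.31 ± 0.26 (limma-trend adjusted p = 0.0185, with 3.50% of models called), but this call was lost without any 1 of these 4 libraries, at differences of 1.24 to 1.38.

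Zfp36 itself was at 14.4 and 12.3 RPKM in Scramble, 34.4 and 27.3 in JunDKO, 23.3 and 21.5 in JunKO and 13.9 and 15.5 in Atf3KO. The JunDKO and JunKO libraries were all above Scramble, and those of Atf3KO overlapped it. The JunDKO difference of 1.15 ± 0.20 was called (limma-trend adjusted p = 0.00795). It was under 2-fold with equal library medians (0.87), a scaling that lowered each of the 9 differences by 0.28, with quantile normalization (0.97), with limma-voom (0.94), with a pseudocount of 5 (0.96) and without JunDKO replicate 1 (0.98, adjusted p = 0.0896), and missed the threshold without Scramble replicate 2 (1.04, adjusted p = 0.0705). In JunKO the difference was 0.71 ± 0.20 (limma-trend adjusted p = 0.329), and in Atf3KO 0.14 ± 0.20 with a 95% interval of -0.31 to 0.59.

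Zfp36l2 measured 28.6 and 34.3 RPKM in Scramble and 52.3 and 105 in Atf3KO, whose 2 libraries lay further from each other than the lower of them lay from Scramble. The difference of 1.22 ± 0.30 was called (limma-trend adjusted p = 0.014) and fell to 0.72 without Atf3KO replicate 2, whose label date differs from that of the other iBMDM libraries. Without either Scramble library it missed the threshold (1.09 and 1.34, adjusted p = 0.0767 and 0.0573). Zfp36l2 measured 30.8 and 33.2 RPKM in JunDKO and 20.9 and 21.0 in JunKO, and neither group was called.

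Tob2 measured 6.62 and 7.76 RPKM in Scramble and 19.4 and 26.7 in Atf3KO, a difference of 1.54 ± 0.24 (limma-trend adjusted p = 0.00247). Tob1, at 11.1 and 14.6 RPKM in Scramble and 24.3 and 30.5 in Atf3KO, differed by 1.04 ± 0.31 (limma-trend adjusted p = 0.0275). Both TOB genes were higher in both Atf3KO libraries, but the call for Tob1 was lost without Atf3KO replicate 2 (0.88), Scramble replicate 1 (0.86), Scramble replicate 2 (1.22) or either JunDKO library (1.04 each), with adjusted p of 0.0548 to 0.137. It was also lost with a pseudocount of 5 (0.86), no filter (adjusted p = 0.0527), equal medians (0.92) or quantile normalization (0.84, adjusted p = 0.0636). Tob2 was also at 13.6 and 12.8 RPKM in JunDKO, above both Scramble libraries, without passing the test (0.79 ± 0.24, limma-trend adjusted p = 0.0689), which it did with the GC trend removed (0.0375) and with the Atf3KO libraries out of the fit (0.0487).

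Zc3h12c went the other way in Atf3KO, at 2.27 and 2.28 RPKM against 6.43 and 7.15 in Scramble. Its difference of -1.25 ± 0.22 had a limma-trend adjusted p of 0.00377, but no group reached 16 RPKM. Zc3h12a measured 6.67 and 7.52 RPKM in Scramble and 2.94 to 6.42 RPKM in the 6 knockout libraries, all below both Scramble libraries. None of its differences of -0.51, -0.60 and -0.66 (Atf3KO, JunKO, JunDKO) passed the test, and its values in JunKO rested on 14 and 30 reads. With the GC trend removed the Atf3KO difference was -1.11 (limma-trend adjusted p = 0.0408), and without Atf3KO replicate 1 it was -0.12 (adjusted p = 0.82).

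Btg1 measured 12.9 and 11.0 RPKM in Scramble and 23.2 and 20.2 in Atf3KO, a difference of 0.81 ± 0.20 that passed the limma-trend test (adjusted p = 0.0148) but not the 2-fold minimum, and missed the threshold in the fit of all 13 libraries (adjusted p = 0.072) and without Scramble replicate 2 (0.0957). Btg2 measured 11.4 and 9.11 RPKM in Scramble, 18.8 and 14.6 in Atf3KO and 5.86 and 4.23 in JunDKO. Its libraries in Atf3KO lay above and those in JunDKO below both Scramble libraries, and neither difference passed (0.65, adjusted p = 0.0927, and -0.91, adjusted p = 0.0745, limma-trend). With the replicate number as a block both had an adjusted p under the threshold (0.0431 and 0.0371), and the JunDKO difference also with equal medians (-1.18, 0.0254), quantile normalization (-1.21, 0.0244), limma-voom (-1.37, 0.0117) and the GC trend removed (-0.89, 0.0417). Compared directly, Btg2 was 1.55 ± 0.28 higher in Atf3KO than in JunDKO (limma-trend adjusted p = 0.00361).

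**Figure D4:**
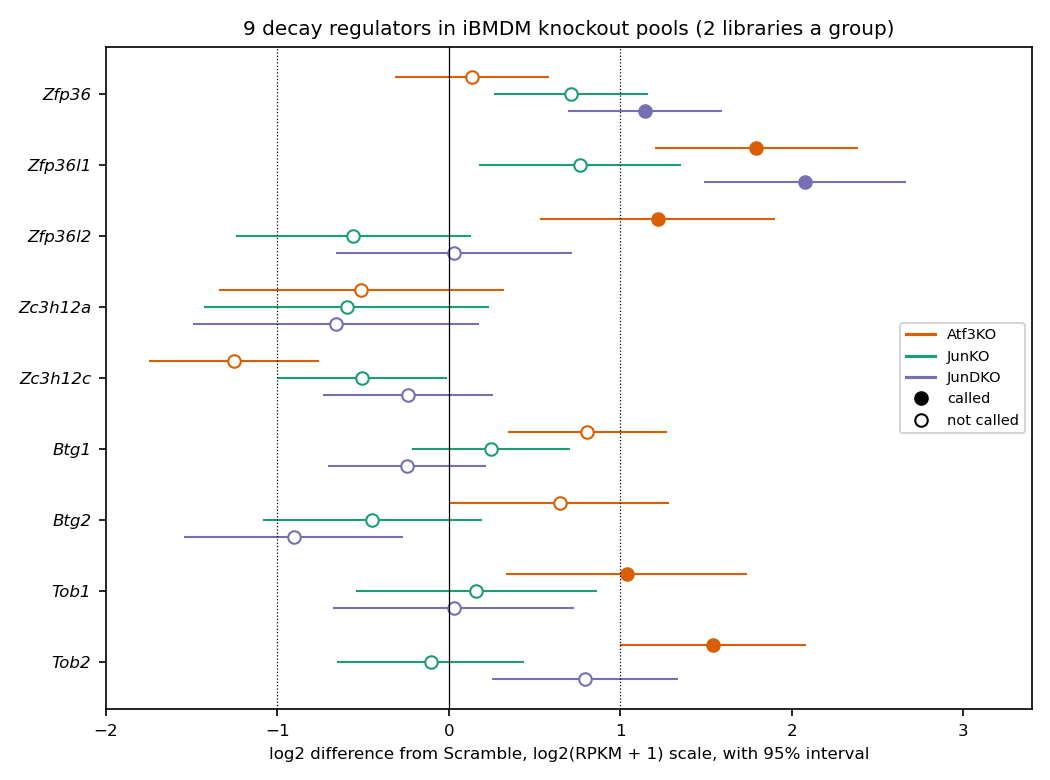
Log2 difference of each knockout group from Scramble on the log2(RPKM + 1) scale with its 95% interval, for the 9 genes in iBMDMs, with filled points where called and dotted lines at 2-fold. Zfp36l1 lies right of 2-fold in Atf3KO (1.79) and JunDKO (2.08), and Zc3h12c lies left of it in Atf3KO (-1.25) without reaching 16 RPKM.

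The knockouts were also compared with each other. Against JunDKO, 5 of 9 genes were called (12.2% of models), with Zfp36l2 (1.19), Btg1 (1.05), Btg2 (1.55) and Tob1 (1.01) higher and Zfp36 (-1.01) lower in Atf3KO. Against JunKO, 4 of 9 were called (9.71% of models), and Zfp36l1 (1.03), Zfp36l2 (1.77), Btg2 (1.09) and Tob2 (1.65) were all higher in Atf3KO. Against JunDKO the count was 1 without Atf3KO replicate 1 (15.9% of models) or without JunDKO replicate 1 (10.2%), and 3 without Atf3KO replicate 2 (9.20%) or JunDKO replicate 2 (8.23%). Against JunKO it was 3 without any 1 of the 4 libraries compared (4.94% to 13.5% of models).

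In Atf3KO the fold changes of all models followed GC content, with a Spearman's rho across models of 0.50, so each value was computed again with the GC trend of each library removed. Zfp36l2 then fell to 0.83, below 2-fold, and Btg1 rose to 1.35 (limma-trend adjusted p = 0.00142) and was called. Zc3h12c went from -1.25 to -0.62 and missed the threshold (limma-trend adjusted p = 0.0567). The number called was again 4, where the share of all models fell from 12.5% to 7.60%. The Atf3KO libraries held reads of 10425 and 10631 models, against 11884 to 12533 in the other iBMDM libraries, and the part of this in the results was not tested.

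The related lists are described by their calls in iBMDMs, where 12.5% of all models were called in Atf3KO and 4.97% in JunDKO, with no test between lists. In Atf3KO 3 of 14 exosome genes were higher (Exosc6 at 2.28, Exosc3 at 1.13 and Exosc5 at 1.07) and 2 lower (Exosc8 at -2.86 and Exosc7 at -1.04). The 2 Atf3KO libraries differed for Exosc6, with 11.9 and 64.5 RPKM. Of 14 deadenylase genes 1 was lower, Cnot8 (-1.06), and of 15 decapping genes 0 passed the limma-trend call and 4 had an unadjusted p under 0.05 (51.8% of all models). The AU-rich element binding protein gene Khsrp was higher (1.14), and Ppp2ca, the catalytic subunit of a phosphatase acting on TTP, lower (-1.33). In JunDKO the kinase gene Mapkapk3 (2.04) and the scavenger decapping gene Dcps (1.28) were higher, and none of the deadenylase or exosome genes was called by limma-trend, with an unadjusted p under 0.05 for 3 and 4 of them (27.5% of all models).

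Known targets of TTP or Regnase-1 were mostly low in unstimulated iBMDMs, and 11 of 18 were tested. In Atf3KO Tnf (-2.03), Plk2 (-1.97) and the transferrin receptor gene Tfrc (-1.24) were lower and Nfkbid (1.84) higher, 4 of 11 genes where 12.5% of models were called. Ptgs2 (-2.74) and Cxcl2 (-2.61) were also lower, at a limma-trend adjusted p of 0.000693 and 0.0169, but under the RPKM minimum. Of the 11 genes 8 had an unadjusted p under 0.05, as had 51.8% of all models. Tnf measured 6.49 and 5.79 RPKM in Atf3KO and 23.6 and 33.7 in Scramble. In JunDKO Tfrc (-1.46) and Ccl2 (-1.04) were lower and none was higher, 2 of 11 genes where 4.97% of models were called. In JunKO 0 of the 73 genes of all lists passed the limma-trend call, and 5 had an unadjusted p under 0.05 (7.88% of all models).

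Unstimulated macrophages of both kinds were set side by side in the C57Bl/6EiJ strain, with 1 vehicle TGEM library and the 2 Scramble libraries in a fit of all 13. The TGEM side was a single library, assumed to vary like the other groups, so the errors and p-values hold no spread of its own and the values compare that library with Scramble, not the kinds of cell. In it Zfp36, Zfp36l2 and Btg1 were higher, 3 of 9 genes where 20.8% of models were called. Zfp36 was at 52.8 RPKM against 14.4 and 12.3 (1.91 ± 0.27, limma-trend adjusted p = 0.00077), and Zfp36l2 at 106 against 28.6 and 34.3 (1.72 ± 0.35, adjusted p = 0.00519). Btg1 was at 29.0 against 12.9 and 11.0 (1.22 ± 0.39, limma-trend adjusted p = 0.0338), a call lost without either Scramble or either JunDKO library (1.11 to 1.32, adjusted p = 0.051 to 0.118), with a pseudocount of 5 (0.0508) or with no filter (0.0742). Tob1 (-1.77) and Zc3h12c (-1.09) were lower and Tob2 (1.00) higher at a limma-trend adjusted p of 0.00747, 0.00742 and 0.0264, all 3 under 16 RPKM. With the GC trend removed Zc3h12c was -0.45 and Tob2 0.80 (limma-trend adjusted p = 0.189 and 0.0558). Mesothelial or fibroblast markers, at most 0.426 RPKM in iBMDMs, moved with this comparison in a part that was not tested.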

How the data were processed

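The values are RPKM as deposited by the authors, who per the file headers counted reads over the exons of condensed genes with HOMER after alignment with STAR to mm10. Balb/cJ reads were aligned to the mm10 sequence altered to that strain. Versions and a strand option are not given in the sources used here, and reads of overlapping or antisense genes may be shared. Nascent RNA (GRO-seq, 4 samples) was not analysed here.

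RPKM values move in steps of 1 read, which gave each library's depth and whole reads (100% of values within 0.05 of a whole number). Models averaging 1 RPKM or more were tested on log2(RPKM + 1) with limma-trend. The 8 iBMDM libraries were fitted as 4 groups (4 residual degrees of freedom) and the 5 TGEM libraries by treatment and strain (2). Two-sided p-values were adjusted over all models tested (Benjamini-Hochberg). A call needed an adjusted p under 0.05, a 2-fold change and a mean of 16 RPKM in either group. On this scale a low gene differs by less than its ratio of RPKM. Replicate pairs showed more than counting error (a chi-square of 3.54 to 75.2 for each degree of freedom), and 0 were identical. Intervals from reads cover counting error only.

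The alternatives were pseudocounts of 0.1 and 5, 2 other filters on low values, equal medians, quantile normalization, limma-voom with TMM scaling on recovered reads, other call limits, removal of the GC trend (a natural spline with 5 degrees of freedom), a replicate block, other sets of libraries or covariates, and each library left out. Of the gene models, 98.1% had a GC value and 75.9% the start and end of RefSeq. Motifs were searched in RefSeq promoters and 3′ UTRs. The fits were tested on simulated data. The 9 genes, the lists and the tests were chosen with earlier results of these data known. All 9 genes are named, and other genes only from the lists where called (up to 6 a list) or set beside a gene of the 9, and the 3 most alike genes for each of the 3 genes with the widest range, of which 1 is not reported here. The Cnot9 gene is listed as Rqcd1. Software was Python 3.11.15, pandas 2.3.3, R 4.3.3 and limma 3.58.1.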

Additional observations from a re-analysis of the deposited data

Results flagged for a closer look

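Tob1 was singled out because its KLA libraries lay above vehicle in C57Bl/6EiJ and below it in Balb/cJ. It measured 3.04 RPKM with vehicle and 7.41 RPKM with KLA in C57Bl/6EiJ, and 7.49 RPKM with vehicle and 6.74 and 4.40 RPKM with KLA in Balb/cJ. The Balb/cJ vehicle value rested on 40 reads, with an exact Poisson 95% interval of 5.35 to 10.2 RPKM that takes in the KLA value of 6.74 RPKM and overlaps the interval of the other. In C57Bl/6EiJ the intervals lay apart, at 2.40 to 3.78 RPKM with vehicle and 5.58 to 9.65 RPKM with KLA. They cover counting error only. The test of the difference itself, the interaction of treatment and strain, gave -1.45 ± 0.55 on the log2 scale with a limma-trend adjusted p of 0.616, so a difference between the strains was not shown.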

How the results depend on the processing

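Alternatives were computed for the 62 of 90 gene and comparison differences that are described. Of 1235 pairs of such a difference and an alternative, 90% kept their direction and side of the call, 7.29% lost the call, 0.891% gained it and 1.86% changed sign. A required log2 difference of 2 left 0 of the 9 genes called in the comparisons of Atf3KO with Scramble (2.47% of all models), JunKO (1.58%) and JunDKO (2.53%), of JunDKO with JunKO (1.03%) and of TGEMs with Scramble (8.0%), and 1 in JunDKO versus Scramble (1.41%). In JunDKO versus Scramble 1 was called with a pseudocount of 5 (3.98%), equal medians (4.93%), quantile normalization (4.69%) or limma-voom (5.04%). Atf3KO versus JunKO gave 2 with a pseudocount of 5 (7.06%) or quantile normalization (8.90%), and Atf3KO versus JunDKO 2 with a pseudocount of 5 (9.14%). KLA versus vehicle gave 1 with no filter (0.315%) or with label date in place of strain (0.628%), and the TGEM and Scramble comparison 6 without the RPKM minimum (36.9%). The causes were not tested. Equal medians moved each difference by -0.12 (Atf3KO versus Scramble), -0.28 (JunDKO versus Scramble), 0.16 (Atf3KO versus JunDKO), -0.25 (JunDKO versus JunKO), 0.14 (KLA) and 0.23 (TGEMs versus Scramble). With 1 library left out, the count was 2 to 4 (Atf3KO versus Scramble, 7.89% to 16.5% of all models), 1 to 2 (JunDKO versus Scramble, 2.47% to 5.06%), 1 to 5 (Atf3KO versus JunDKO, 8.23% to 15.9%), 0 to 1 (JunDKO versus JunKO, 1.44% to 3.72%) and 0 to 3 (KLA, 0.146% to 1.04%). In the direct comparisons, calls were lost in 6 alternatives for Zfp36l1 and 4 for Btg2 (Atf3KO versus JunKO), and in 6 each for Zfp36 and Tob1, 5 for Zfp36l2, 3 for Btg1 and 1 for Btg2 (Atf3KO versus JunDKO), leaving the stricter fold limit aside. Differences near 0 changed sign. Zfp36 in Atf3KO was -0.0185 with quantile normalization and -0.187 with the GC trend removed. In JunDKO Zfp36l2 and Tob1 were -0.248 and -0.25 with equal medians, -0.137 and -0.244 with quantile normalization and -0.14 and -0.0918 with limma-voom, and Zfp36l2 was -0.00732 with the GC trend removed. Tob2 after KLA was -0.00027 with a pseudocount of 0.1 and -0.0545 with the GC trend removed. With 1 library left out, Zfp36l2 and Tob1 in JunDKO spanned -0.0956 to 0.156 and -0.153 to 0.209, Tob1 and Tob2 after KLA -0.393 to 1.06 and -0.166 to 0.222, and Zfp36l1 in TGEMs against Scramble -0.261 to 0.496.

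With a replicate block the counts stayed at 4 in Atf3KO, 0 in JunKO and 2 in JunDKO against Scramble, and at 4, 5 and 1 in the direct comparisons, and with the GC trend also removed they were 4, 0, 2, 6, 4 and 1, where the share of all models went from 12.3% to 7.63%, 0.0748% to 0.623%, 4.73% to 5.32%, 9.62% to 5.68%, 12.1% to 8.62% and 3.27% to 4.10%. Differences of same-numbered replicates correlated across models at 0.18 to 0.22 among Scramble, JunKO and JunDKO and at -0.21 to -0.12 with Atf3KO, so the numbers do not pair all groups. The interaction with 1 library left out and the TGEM and Scramble comparison without its lone TGEM library could not be fitted.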
